A study of Mus musculus with 6 samples.

Results

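The proteins of the cytosolic ribosome are encoded by a family of short genes named Rpl, for the large 60S subunit, and Rps, for the small 40S subunit. Their levels were described here in nuclear RNA of cerebellar granule neurons with and without a conditional knockout of Ezh1. Members were the table entries whose mouse symbol is Rpl or Rps with a number and an optional letter or x, together with Rplp0, Rplp1, Rplp2 and Rpsa. Pseudogene names ending in -ps, the ribosomal S6 kinases, Y-linked copies and paralogues whose names end in l were not taken. The rule uses names alone, and it found 76 members among 24594 entries, 46 of the 60S and 30 of the 40S subunit.

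The 6 libraries were made from NeuN-positive nuclei sorted from the cerebellum of mice aged 7 months, after fixation in formaldehyde. In 3 of them the genotype was Ezh1(cKO/cKO);Neurod1-Cre (cKO), and in the other 3 it was Ezh1(wt/wt);Neurod1-Cre (WT), so that every library, WT included, carried the Cre. Ezh1 encodes a catalytic subunit of Polycomb repressive complex PRC2, and Neurod1 is a transcription factor gene of granule neurons. Which part of Ezh1 is removed, how the Cre is driven beyond its name, and whether the libraries came from separate animals are not given by the labels. The p-values therefore measure the spread between these samples, which may be technical. Sorting by NeuN does not select for the Cre, so nuclei of Cre-free neurons may be present. In bulk nuclei, fewer cells of a type and less RNA per cell cannot be told apart.

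Ribosomal proteins are needed in near-equal amounts, 1 copy of most of them in each ribosome, and each is assembled with ribosomal RNA in the nucleolus. Their mRNAs typically begin with a run of pyrimidines that starts with C, the 5′ terminal oligopyrimidine (TOP) tract, through which mTORC1 signalling controls their translation. In neurons they are among the abundant housekeeping transcripts of the cytoplasm. The nuclear pool measured here holds transcripts on their way out and unspliced RNA, so a level here is not that of cytoplasmic mRNA.

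The libraries held 6340236 to 6827022 counts in cKO and 6682805 to 8284768 in WT, and 1 unannotated entry took 24.5% to 26.7% of each. Levels are given as CPM, the deposited counts scaled to 1 common library size by each library's total and its TMM factor. Ezh1, the targeted gene, stood at 52.5, 50.9 and 55.6 CPM in cKO replicates 1, 2 and 3, against 71.0, 75.6 and 83.3 CPM in WT replicates 1, 2 and 3. It fell in cKO by 0.53 on the log2 scale (SE 0.0984, edgeR adjusted p = 0.00672), and its transcripts remained detected in each cKO library. The call was lost without cKO replicate 1 or WT replicate 3. All 14 granule cell markers were detected, with a summed level of 5356 to 6356 CPM in cKO and 5538 to 5671 CPM in WT. Markers of oligodendrocytes summed to 307–675 CPM in cKO and 245–436 CPM in WT, and those of choroid plexus to at most 0.864 CPM in cKO and 0.418 CPM in WT. Of the granule cell markers 1 was called, Neurod1, the gene the Cre is named for, at 317, 318 and 287 CPM in cKO replicates 1, 2 and 3, against 138, 154 and 134 CPM in WT replicates 1, 2 and 3. It rose in cKO by 1.11 on the log2 scale (SE 0.0815, edgeR adjusted p = 8.04e-10), and Zic2 and Gabrd, not called, also had every cKO library above WT. The summed level of no cell type list separated the genotypes, and the part of these cells in the results on ribosomal protein genes was not tested.

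The 76 ribosomal protein genes together drew 21159 counts, 0.0504% of all counts. Their share was lowest in cKO replicate 3, at 0.0479% (exact 95% binomial interval 0.0462% to 0.0496%), and highest in WT replicate 2, at 0.0548% (0.0531% to 0.0565%). These intervals cover counting error only. The family summed to 492, 482 and 481 CPM in cKO replicates 1, 2 and 3, and 510, 558 and 499 CPM in WT replicates 1, 2 and 3. Every cKO library was below every WT library, and WT replicate 2 stood highest by a wide gap. The family averaged 485 ± 6.01 CPM in cKO and 522 ± 30.9 CPM in WT (SD, n = 3 each), a ratio of 0.928. Without WT replicate 2 the ratio was 0.961. With levels scaled to library size alone the genotypes overlapped, at 479 to 501 CPM in cKO and 497 to 548 CPM in WT, with a ratio of 0.95.

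The 60S genes summed to 281, 290 and 289 CPM in cKO replicates 1, 2 and 3, against 303, 342 and 298 CPM in WT replicates 1, 2 and 3. All 3 cKO libraries were below the WT libraries, with a ratio of 0.913. The 40S genes summed to 211, 192 and 192 CPM in cKO replicates 1, 2 and 3, against 208, 216 and 201 CPM in WT replicates 1, 2 and 3. Here the genotypes overlapped, since cKO replicate 1 exceeded WT replicates 1 and 3, and the ratio was 0.952. The difference between the subunits was not tested.

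**Figure D1:**
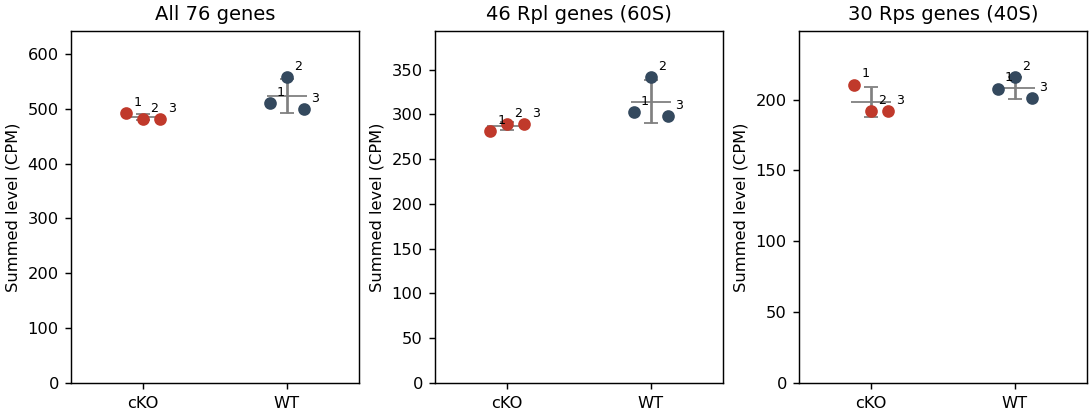
Summed level of ribosomal protein genes in CPM (y axis, from 0) in each library, for all 76 genes, the 46 Rpl genes and the 30 Rps genes. Points are libraries with their replicate number, lines are means and bars the SD of 3 libraries; for all genes, cKO libraries lie at 481 to 492 CPM and WT libraries at 499 to 558 CPM.

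Of the 76 genes, 68 passed the filter on low counts, 41 of the 60S and 27 of the 40S subunit. None of the 68 was called higher or lower in cKO by edgeR at an adjusted p below 0.05, in an experiment that called 0.587% of 13115 genes (0.328% higher and 0.259% lower). limma-voom and DESeq2 also called 0, although DESeq2 gave no adjusted p to 64 of the 68. At an unadjusted edgeR p below 0.05 there were 6 ribosomal protein genes, 4 lower and 2 higher in cKO, beside 11.9% of all tested genes (6.05% lower and 5.8% higher). The smallest adjusted p in the family was 0.185.

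Most of the 68 genes nevertheless had a negative log2 fold change, cKO over WT: 46 did (67.6%), against 51.2% of all genes tested. Their median log2 fold change was -0.16, and that of all genes was -0.01. The medians of the 2 subunits were nearly equal, at -0.17 for the 40S genes, of which 17 of 27 were negative, and -0.16 for the 60S genes, of which 29 of 41 were negative. The family's median depended on 2 libraries: it was -0.092 without WT replicate 2 and -0.096 without cKO replicate 3. With library size alone it was -0.13, with 42 of 68 negative, while the median of all genes was 0.03.

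Every cKO library was below every WT library for 11 of the 68 genes (16.2%), where 8.4% of all genes showed this. Rpl27a, Rpl7a, Rpl4, Rpl8, Rps25, Rpl31, Rps13, Rps18 and Rpl24 were among them. The reverse held for 4 genes, Rps6, Rpl12, Rpl3 and Rpl27, beside 7.91% of all genes. These genes share the 6 libraries and their scaling, so they are not independent of each other.

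**Figure D2:**
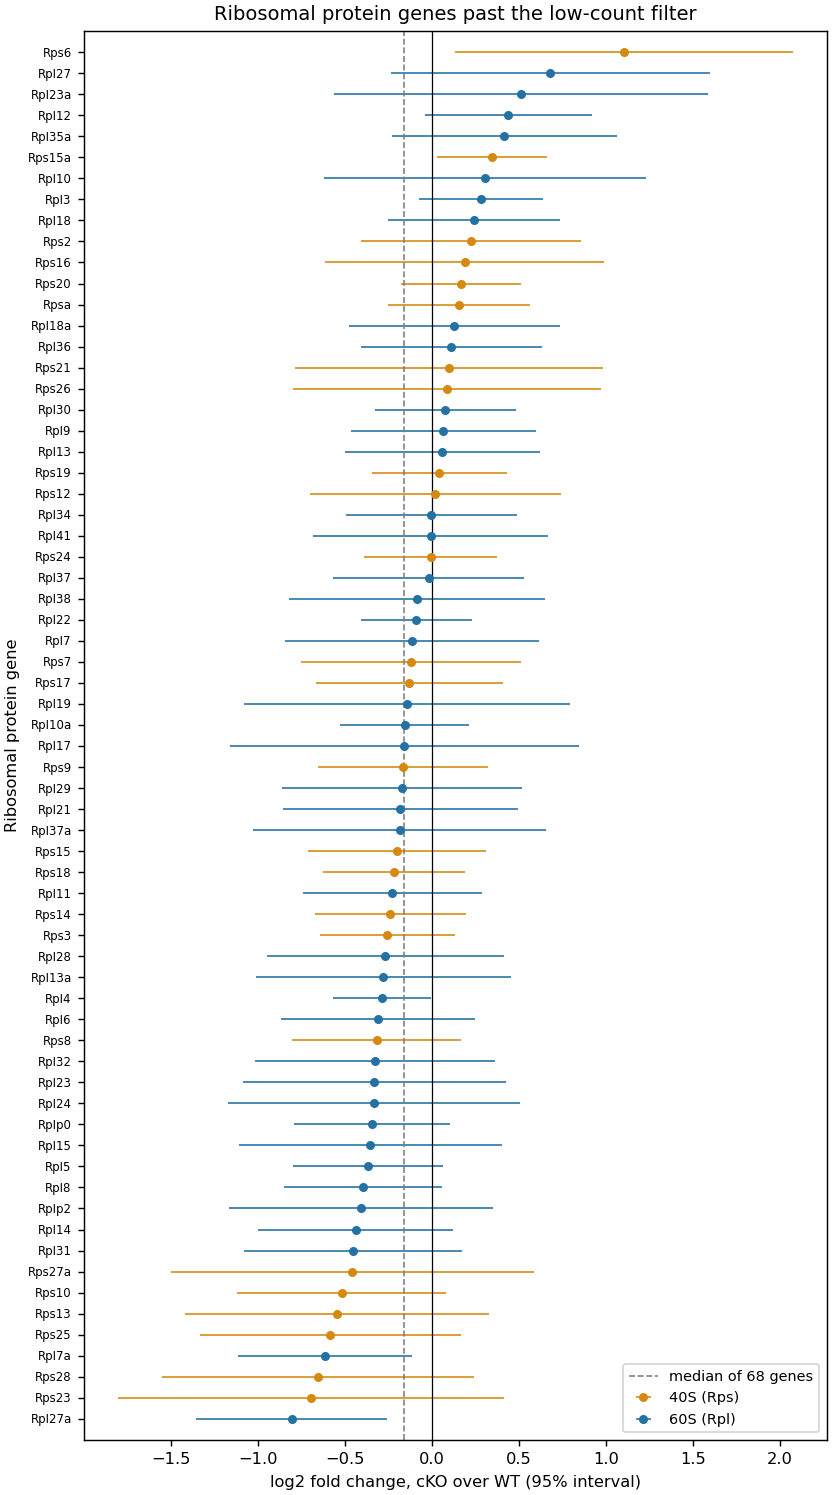
Log2 fold change, cKO over WT, of 66 tested ribosomal protein genes with 95% intervals from the edgeR fit, with the median of all 68 as a dashed line. Estimates run between -0.80 (Rpl27a) and 1.10 (Rps6), 44 of those drawn lie below 0, and no gene is called.

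These genes drew few counts, and their single log2 fold changes were imprecise. The mean level of the 68 ran between 1.51 and 24.9 CPM with a median of 5.78 CPM, and no member reached 30 CPM, the range that held 61 of the 77 genes called in the whole experiment. Standard errors of the log2 fold changes were 0.137 to 0.541, with a median of 0.294. The 95% interval lay within 2-fold for 44 of the 68 genes (64.7%), against 81% of all tested genes. Among the 39 ribosomal protein genes at 3 to 10 CPM the median log2 fold change was -0.18 with 76.9% negative, and for all genes of that level it was -0.02 with 52.4% negative. Among the 14 members at 10 to 30 CPM the median was -0.05 with 57.1% negative, against -0.01 with 52.0% for all genes of that level. Among the 15 members under 3 CPM it was -0.14 with 53.3% negative, against -0.01 with 50.9%. The excess of negative values thus lay mainly at 3 to 10 CPM.

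Rpl27a, a protein of the 60S core (gene ID 26451, chromosome 7, 109519195 to 109522369 in GRCm38.p6), had the smallest p. It stood at 4.61, 5.25 and 5.23 CPM in cKO replicates 1, 2 and 3, against 6.35, 12 and 8.01 CPM in WT replicates 1, 2 and 3. The cKO libraries were close together and all below WT, and WT replicate 2 was the high point. The log2 fold change was -0.80 (SE 0.268, edgeR adjusted p = 0.185), and without WT replicate 2 it was -0.52 (edgeR adjusted p = 0.713).

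Rpl7a, a 60S protein whose gene hosts small nucleolar RNAs, stood at 5.90, 6.95 and 4.62 CPM in cKO replicates 1, 2 and 3, against 8.31, 9.33 and 9.10 CPM in WT replicates 1, 2 and 3. All cKO libraries were again below all WT libraries, here with the WT values close together. Its log2 fold change was -0.61 (SE 0.243, edgeR adjusted p = 0.287).

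Rpl4, whose protein lines the wall of the tunnel through which the new peptide leaves the ribosome, was the most precisely measured member. It stood at 22.2, 22.4 and 22 CPM in cKO replicates 1, 2 and 3, against 26.8, 29.0 and 25.5 CPM in WT replicates 1, 2 and 3. The cKO libraries differed by less than 1 CPM and lay below each WT library. The log2 fold change was -0.29 (SE 0.137, edgeR adjusted p = 0.407).

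Rps6, the 40S protein phosphorylated by the S6 kinases downstream of mTORC1, had the highest log2 fold change of the family. It had 13, 21 and 17 counts in cKO replicates 1, 2 and 3, and 9, 9 and 8 counts in WT replicates 1, 2 and 3, or 1.87, 3.24 and 2.62 CPM in cKO and 1.36, 1.25 and 0.971 CPM in WT. Every cKO library was above every WT library, on few counts. The log2 fold change was 1.10 with a wide error (SE 0.473, edgeR adjusted p = 0.340).

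Rps15a, a 40S protein, stood at 24.8, 27.9 and 22.9 CPM in cKO replicates 1, 2 and 3, against 23.0, 16.2 and 20.4 CPM in WT replicates 1, 2 and 3. cKO replicate 3 and WT replicate 1 were about level, so the genotypes overlapped, and WT replicate 2 was here the lowest library. The log2 fold change was 0.35 (SE 0.154, edgeR adjusted p = 0.361), and 0.22 without WT replicate 2.

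The starts of these 5 genes are shown because the TOP tract is the sequence the family is known for. Each window has 30 bases before the RefSeq transcript start and 20 from it on, in GRCm38.p6, and capitals mark a run of pyrimidines, whole from its first C, where a C followed by 4 pyrimidines begins within 5 bases of the start. The start used for Rpl7a lies inside the gene's RefSeq span, after its outermost end. Rpl27a is chr7:109519165-109519214 on the plus strand, Rpl7a chr2:26910777-26910826 plus, Rps6 chr4:86857348-86857397 minus, Rps15a chr7:118116128-118116177 minus and Rpl4 chr9:64173357-64173406 plus.
Rpl27a: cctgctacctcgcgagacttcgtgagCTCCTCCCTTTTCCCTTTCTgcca
Rpl7a: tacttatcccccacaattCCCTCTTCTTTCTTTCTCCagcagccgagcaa
Rps6: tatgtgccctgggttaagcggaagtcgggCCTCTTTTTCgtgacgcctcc
Rps15a: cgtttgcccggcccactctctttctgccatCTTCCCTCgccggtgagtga
Rpl4: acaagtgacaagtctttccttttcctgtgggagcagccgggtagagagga
The marked runs are 20, 19, 10 and 8 bases long in Rpl27a, Rpl7a, Rps6 and Rps15a. Rpl4 has none that meets the rule at the annotated start, though an unmarked run of pyrimidines from a C lies further before it. Genes with a marked run are thus found both among those with negative and those with positive log2 fold changes.

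Of the 76 genes, 56 had promoter entries, 66 in all. A C followed by 4 pyrimidines began within 5 bases of the start in 29 of the 66 (43.9%), and in 18.3% of the 32851 entries of all genes. Over 250 bases before to 50 after the start, on both strands, CCGGAA, the core bound by ETS factors such as GABP, was in 48.5% of members' entries against 14.9% of all. ATGGCGG, a core of the YY1 motif, was in 18.2% against 4.05%, and GGGCGG, the GC box bound by Sp1, was in 60.6% against 35.7%. CACGTG, the E-box bound by MYC, was in 12.1% against 7.15%, while TATAAA was in 9.09% against 13.6% and CCAAT in 31.8% against 37.4%. These are letter matches, not measured binding sites.

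Another 6 members of small p had edgeR adjusted p-values between 0.481 and 0.569. Rpl12, at the base of the stalk that recruits translation factors, stood at 10.5, 8.49 and 9.70 CPM in cKO replicates 1, 2 and 3, against 7.71, 8.22 and 5.34 CPM in WT replicates 1, 2 and 3. Rpl3, close to the peptidyl transferase centre, stood at 16.8, 17.3 and 17.7 CPM in cKO, against 11.3, 14.6 and 16.4 CPM in WT. Both had every cKO library above WT, with log2 fold changes of 0.44 for Rpl12 and 0.28 for Rpl3. Without WT replicate 3 that of Rpl12 was 0.26, and without WT replicate 1 that of Rpl3 was 0.15.

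Rpl8, also close to the peptidyl transferase centre, stood at 7.20, 7.87 and 8.01 CPM in cKO replicates 1, 2 and 3, against 8.92, 11.8 and 9.59 CPM in WT replicates 1, 2 and 3. Its cKO libraries were all below WT, with a log2 fold change of -0.40, so neighbours in the ribosome lay on opposite sides of 0. Rps10, a protein of the 40S head, stood at 7.63, 5.09 and 5.23 CPM in cKO, against 5.29, 13.0 and 7.52 CPM in WT. Rpl14, on the 60S surface, stood at 7.34, 4.32 and 4.46 CPM in cKO, against 8.01, 7.94 and 6.07 CPM in WT. The genotypes overlapped for both, with log2 fold changes of -0.52 for Rps10 and -0.44 for Rpl14. Without WT replicate 2 that of Rps10 was -0.10, and without cKO replicate 1 that of Rpl14 was -0.73.

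**Figure D3:**
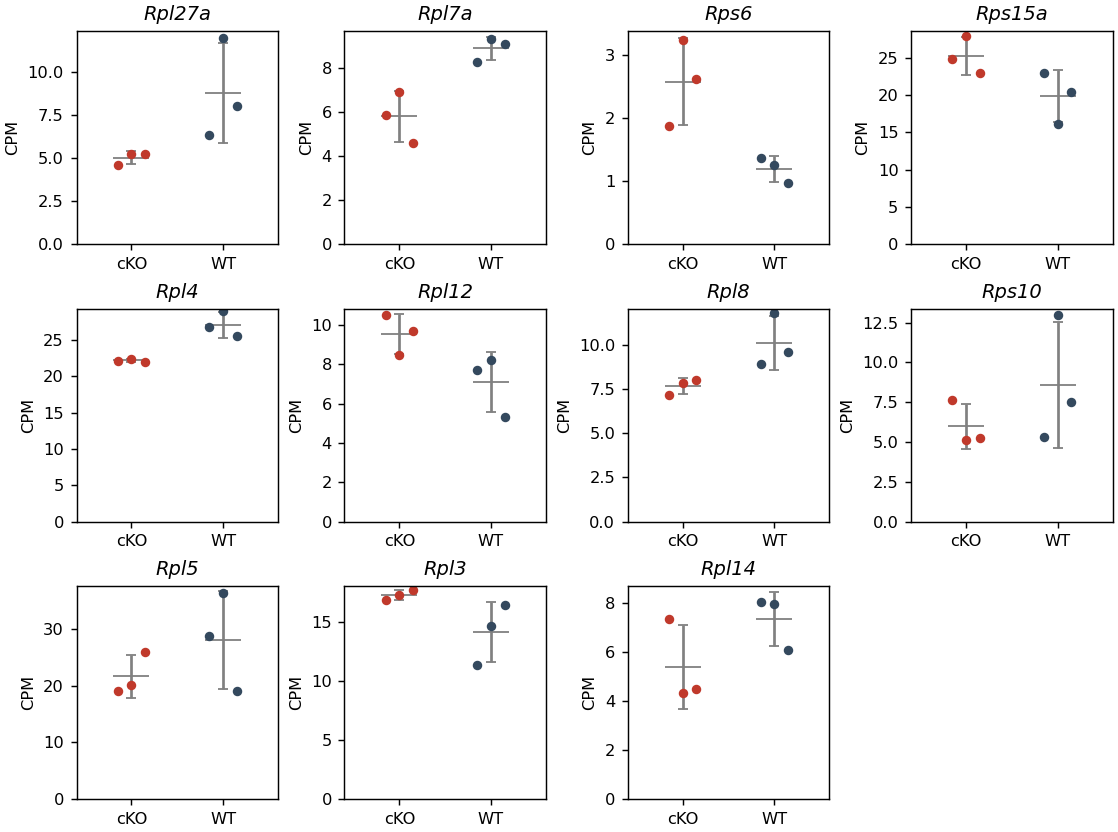
Level in CPM (y axes, from 0) of 11 ribosomal protein genes of small p in each library, with the genotype mean and SD (3 libraries each). Rpl27a, Rpl7a, Rpl4 and Rpl8 have every cKO library below WT, Rps6, Rpl12 and Rpl3 have every cKO library above WT, and Rps15a, Rps10, Rpl5 and Rpl14 overlap; none is called.

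Rpl5 and Rpl11 bind the 5S ribosomal RNA, and outside the ribosome this particle inhibits MDM2, the ligase that marks p53 for destruction. Rpl5 stood at 19.0, 20.1 and 26.0 CPM in cKO replicates 1, 2 and 3, against 28.7, 36.4 and 19.1 CPM in WT replicates 1, 2 and 3 (log2 fold change -0.37, edgeR adjusted p = 0.519). Rpl11 stood at 6.76, 5.25 and 8.47 CPM in cKO, against 9.67, 7.24 and 7.16 CPM in WT (log2 fold change -0.23, edgeR adjusted p = 0.782). The Rpl5 log2 fold change was -0.13 without WT replicate 2 and -0.59 without WT replicate 3. Both genes overlapped between genotypes, WT replicate 3 being the lowest WT library for each. Rpl5 also lies across Dipk1a in the annotation, so reads of the 2 genes may not be separable. The same limit holds for other members. With small nucleolar RNA genes set aside, 21 members overlap another gene, and 16 of them a gene that was also counted. Rpl31, Rps25 and Rpl24, which had every cKO library below WT, are among these 16, as are Rps27a and Rpl19.

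The P stalk, the acidic arm that activates the GTPases of translation, is built of Rplp0, Rplp1 and Rplp2. Rplp0 stood at 8.20, 10.2 and 7.85 CPM in cKO replicates 1, 2 and 3, against 10.9, 13.5 and 8.98 CPM in WT replicates 1, 2 and 3 (log2 fold change -0.34, edgeR adjusted p = 0.582). Rplp2 stood at 2.73, 3.40 and 3.23 CPM in cKO, against 2.42, 3.76 and 6.07 CPM in WT (log2 fold change -0.40, edgeR adjusted p = 0.725). Both overlapped, and Rplp1 had too few counts to be tested. The 3 genes summed to 12.7, 14.4 and 12.5 CPM in cKO against 14.5, 17.8 and 16.5 CPM in WT, a ratio of 0.808 with cKO replicate 2 and WT replicate 1 nearly level.

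In the group of 7 proteins along the mRNA channel and decoding site, all 7 were tested, 0 were called and 5 were negative, with a median log2 fold change of -0.24 and a summed ratio of 0.866. Of 8 proteins grouped at the exit tunnel 5 were tested, 0 were called and 4 were negative, with a median of -0.14. This group did not include Rpl4, whose values are given above. Of 14 genes known for mutations in Diamond-Blackfan anaemia, a human failure of red cell production, 11 were tested, 0 were called and 7 were negative, with a median of -0.12.

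Rpsa, also known as the laminin receptor, stood at 15.8, 10.3 and 13.1 CPM in cKO replicates 1, 2 and 3, against 11, 11.3 and 12.9 CPM in WT replicates 1, 2 and 3 (log2 fold change 0.16, edgeR adjusted p = 0.818). Rps27a, which is made as a fusion with ubiquitin, stood at 1.58, 1.23 and 1.39 CPM in cKO, against 2.12, 0.836 and 2.79 CPM in WT (log2 fold change -0.46, edgeR adjusted p = 0.787). Both overlapped between genotypes.

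The X chromosome carries 4 members, Rpl10, Rpl36a, Rpl39 and Rps4x. Xist, the RNA of the inactive X, stood at 831 CPM in cKO replicate 1 and 812 CPM in WT replicate 1, and at 1.39 to 4.46 CPM in the other 4 libraries, so each genotype had 1 library of the high kind. Rpl10 was the X-linked member that passed the filter. It stood at 1.44, 3.40 and 2.31 CPM in cKO replicates 1, 2 and 3, against 2.12, 2.09 and 1.58 CPM in WT replicates 1, 2 and 3, with overlap (log2 fold change 0.30, edgeR adjusted p = 0.847).

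Chromosome 11, which carries Ezh1, carries 7 members. Rpl27 lies 216 kb from Ezh1, the nearest of them, and was singled out here after its values were seen. It averaged 2.41 ± 0.22 CPM in cKO and 1.49 ± 0.11 CPM in WT (SD, n = 3 each), with no overlap between libraries. The log2 fold change was 0.68 (SE 0.447, edgeR adjusted p = 0.598). Rpl19 was next, 3161 kb away, with a log2 fold change of -0.14 and overlapping libraries. Whether sequence carried along with the targeted allele differs between the genotypes was not tested.

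The 8 members below the filter were Rpl26, Rps29, Rpl35, Rpl36a, Rplp1, Rpl39, Rps27 and Rps4x. Rpl26, at the rim of the exit tunnel, had 0 counts in every library, which allows a level of up to 0.364 to 0.463 CPM by library. Rps29 had 3, 5 and 1 counts in cKO replicates 1, 2 and 3, and 1, 3 and 6 in WT replicates 1, 2 and 3. Rpl35 had 6, 4 and 4 counts in cKO, and 7, 1 and 5 in WT. Neither separated the genotypes, and no difference was detectable at this depth.

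Rpl36a had 8, 3 and 7 counts in cKO replicates 1, 2 and 3, and 8, 3 and 10 in WT replicates 1, 2 and 3. Rplp1 had 12, 5 and 9 counts in cKO, and 8, 4 and 12 in WT. Rps4x had 7, 10 and 14 counts in cKO, and 5, 10 and 11 in WT. All 3 overlapped. Rps27, a zinc finger protein of the 40S subunit, had 4, 8 and 6 counts in cKO and 4, 23 and 14 in WT, overlapping through WT replicate 1. Rpl39, a small tunnel protein, had 6, 6 and 5 counts in cKO and 11, 10 and 12 in WT. It alone among the 8 had no overlap, at 0.864, 0.926 and 0.770 CPM in cKO against 1.66, 1.39 and 1.46 CPM in WT, and it was not tested.

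Levels of different genes were compared per kilobase of transcript. Rpl30 was highest, at 30.3, 20.3 and 37.0 CPM per kb in cKO replicates 1, 2 and 3, against 25.2, 33.5 and 24.5 CPM per kb in WT replicates 1, 2 and 3. Rpl10a followed with means of 19.2 CPM per kb in cKO and 21.4 in WT, and Rps19 with 20.4 in cKO and 19.9 in WT. The genotypes overlapped for Rpl30, whose spread within a genotype exceeded the gap to the genes after it.

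At the other end, Rpl26 was at 0, Rpl35 averaged 0.739 CPM per kb in cKO and 0.636 in WT, and Rps29 averaged 1.16 in cKO and 1.11 in WT. Members of one particle, needed in near-equal amounts, thus differed more than 10-fold in counts per kilobase in the nucleus. Rps15a, with an annotated transcript of 5179 bases, averaged 4.87 CPM per kb in cKO and 3.83 in WT, rank 47 of the family. Levels were also taken per kilobase of the joined exons of each gene's RefSeq-linked transcripts, or of all its transcripts where none was linked. The tested members then had a median of 6.52 CPM per kb, against 5.86 for 12506 tested genes. Of those genes, 53.3% lay below the median member. On this scale the family thus lay near the middle of the tested genes. The annotation used for counting and the handling of reads with several matches are not given. The scale therefore does not settle how abundant the transcripts themselves were.

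**Figure D4:**
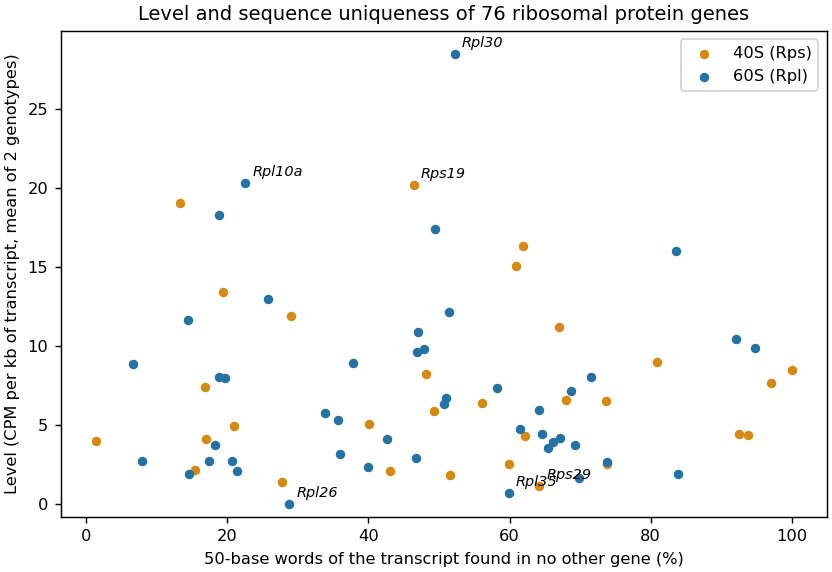
Level per kilobase of transcript (CPM per kb, mean of 6 libraries) of the 76 ribosomal protein genes, against the percentage of 50-base stretches of the transcript found in no other gene's transcripts. The points show no slope (Spearman rho 0.011), with Rpl30 highest at 28.5 CPM per kb and Rpl26 at 0.

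Ribosomal protein genes have many near-identical processed copies, and the sources used here do not say how reads with several matches were counted. RefSeq names 318 pseudogene entries after 62 of the members, with a maximum of 24 for Rpl31. The deposited table holds 7 of these, with 264 counts in all. In the transcript annotation, the median member had 49.3% of its 50-base stretches found in no other gene, and 19 members had less than 25%. Rps27 had 1.35%. Of the 5 genes whose starts are shown, Rps15a had 93.7%, Rpl4 83.5% and Rpl27a 64.1%, but Rpl7a had 18.8% and Rps6 15.4%. The percentage depends on the annotated transcript used. That of Rps15a has 5179 bases, against a median of 814.5 for members, and 39 other genes share stretches with it. Across the 76 members this percentage had a Spearman rho of 0.011 with the level per kilobase. Its Pearson r with log2 of that level plus 0.1 was 0.049. Both are descriptions over genes that share libraries. Reads of a member and its copies could be split or dropped. The levels of single members, such as Rpl26, Rps27, Rps6 and Rpl7a, are therefore uncertain. Rps29 and Rpl35 were also low, with 64.2% and 59.9% of their stretches found in no other gene. Whether shared sequence lowered any member was not tested. The median log2 fold change was -0.22 for the 34 tested members with at least 50% unique stretches, of which 25 were negative, and -0.12 for the 34 with less, of which 21 were negative.

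Introns of the family house small nucleolar RNAs, which guide modification of ribosomal RNA. In the annotation, 58 such genes lie inside 29 members, with a maximum of 5 in Rpl4. The 28 tested hosts had a median log2 fold change of -0.17, with 57.1% negative, and the 40 tested members that host none had -0.16, with 75% negative. The family is compact, with a median gene span of 3170 bases against 24620 for all tested genes. It is spread over 19 chromosomes, with 14 members on chromosome 7.

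Other genes of the ribosome and of translation were described from the same fit. Rack1, a ribosomal component that the naming rule leaves out, had a log2 fold change of -0.19 (edgeR adjusted p = 0.666). Of 61 tested assembly factors 1 was called, 44 were negative, and the median was -0.10. The called gene was Ncl, nucleolin, an abundant nucleolar protein. It stood at 110, 125 and 121 CPM in cKO replicates 1, 2 and 3, against 135, 183 and 154 CPM in WT replicates 1, 2 and 3, and fell by 0.41 on the log2 scale (SE 0.0964, edgeR adjusted p = 0.0413). Every cKO library was below WT, but the call was lost with library size alone (edgeR adjusted p = 0.0556) and with limma-voom (adjusted p = 0.113). It was also lost without cKO replicate 1 (edgeR adjusted p = 0.321), cKO replicate 3 (0.0869), WT replicate 2 (0.326) or WT replicate 3 (0.177), where the edgeR log2 fold change was between -0.43 and -0.29.

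Of 41 tested initiation factors 0 were called and 33 were negative (80.5%), with a median log2 fold change of -0.14. The smallest p-values were those of Eif2b4, a subunit of the guanine exchange factor eIF2B (log2 fold change -0.46, edgeR adjusted p = 0.114), and Eif3c (-0.35, edgeR adjusted p = 0.158). Of 13 elongation and release factors, including Tpt1, 0 were called and the median was near 0. Eef2, which moves the ribosome along the mRNA, had a log2 fold change of -0.29 (edgeR adjusted p = 0.162), and Eef1d had 0.20 (edgeR adjusted p = 0.416).

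The RNA polymerase I machinery, which makes the large ribosomal RNAs, had 18 tested genes, 0 called and a median log2 fold change of -0.05. Polr2e, a subunit shared by the nuclear RNA polymerases, was at -0.52 (edgeR adjusted p = 0.142) and Polr1c at -0.31 (edgeR adjusted p = 0.506). Of 33 genes of the mTORC1 pathway with the S6 kinases 0 were called, with a median of -0.02. Castor2 was at 0.32 (edgeR adjusted p = 0.156) and Tbc1d7, a subunit of the TSC complex, at -0.60 (edgeR adjusted p = 0.434). Noncoding hosts of small nucleolar RNAs, 14 tested, had 0 called and a median of -0.09, led by Snhg17 at -0.27 (edgeR adjusted p = 0.303) and Snhg5 at 0.52 (edgeR adjusted p = 0.459).

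Of 9 ribosomal protein paralogues 3 were tested and 0 called, with a median of -0.05. Mitochondrial ribosomal protein genes, which make a separate ribosome, had 75 tested, 0 called, 44 negative and a median log2 fold change of -0.06. Their smallest p-values were those of Mrps6 (0.62, edgeR adjusted p = 0.242) and Mrpl55 (-0.55, edgeR adjusted p = 0.453). Nuclear genes of the respiratory chain, short housekeeping genes as well, had 76 tested, 0 called, 34 negative and a median of 0.02. Ndufv3 was at -0.45 (edgeR adjusted p = 0.137) and Atp5a1 at -0.25 (edgeR adjusted p = 0.277). The medians of the cytosolic ribosomal protein genes and of the initiation factors were thus the most negative among these lists. Other measures did not set the family apart. Every cKO library was below every WT library for 23.0% of assembly factors and 17.1% of initiation factors, against 16.2% of the family. Their summed ratios were 0.925, 0.930 and 0.928. Mitochondrial ribosomal protein genes had 2.67% and a ratio of 0.978, and respiratory chain genes 9.21% and 0.974. No test of the order of medians was made, and WT replicate 2 and cKO replicate 3 bear on the family's median as given above.

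**Figure D5:**
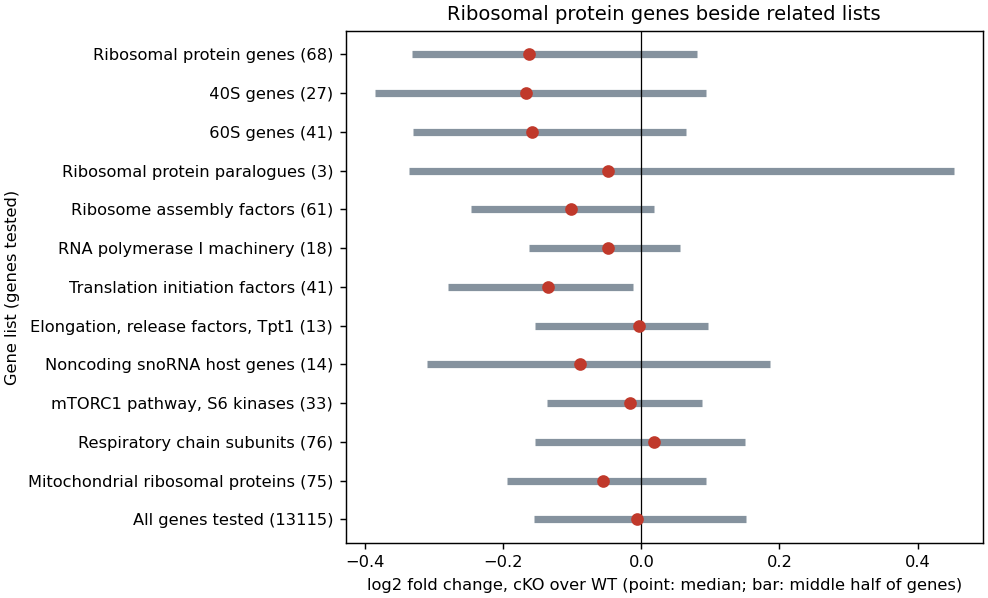
Log2 fold change, cKO over WT, of the tested genes of each list, with the median marked. Cytosolic ribosomal protein genes have a median of -0.16, initiation factors -0.14 and assembly factors -0.10, while nuclear respiratory chain genes have 0.02.

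Members were not highest or lowest in the same library. WT replicate 2 was the highest library for 18 of the 68 tested members and WT replicate 1 for 16, against 9, 12 and 5 for cKO replicates 1, 2 and 3 and 8 for WT replicate 3. The lowest library was cKO replicate 1 for 19 members, cKO replicate 3 for 16 and cKO replicate 2 for 10, and WT replicates 1, 2 and 3 for 8, 6 and 9.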

How the data were processed

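The authors deposited 1 table of whole-number read counts per gene, not normalized, with a column for each of 6 nuclear RNA libraries. Reads were handled with Subread against mm10, per the submitters' processing notes; the version, annotation, strand and treatment of multiply matching reads remain not given in the sources used here. Of 24594 gene IDs 24570 matched RefSeq of GRCm38.p6, which gave symbols, positions and promoter sequences. GENCODE M21 transcripts gave lengths and unique 50-base stretches.

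Counts were fitted in R 4.3.3 with edgeR 4.0.16 over all 13115 genes kept by filterByExpr, with TMM scaling and robust glmQLFit and glmQLFTest (genotype alone), two-sided. Adjusted p-values are Benjamini-Hochberg over all genes tested, and a gene was called below 0.05. Code was tested on simulated data. Alternatives were limma-voom 3.58.1, DESeq2 1.42.0, other scalings, no filter, a replicate block and leaving out each library.

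Members and lists were chosen with earlier results of these data known, and no test was made over a list. Named with library values are the 12 members of smallest p, stalk, 5S-binding, X-linked and untested members, Rps6, Rpsa, Rps27a and the extremes per kilobase; of other lists, the called genes or the 2 of smallest p. A few of the genes so chosen are left out of this text.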

Additional observations from a re-analysis of the deposited data

How the results depend on the processing

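No ribosomal protein gene was called under any alternative, and all 168 alternative values of the 12 members of smallest p kept their direction and stayed uncalled, though leaving out 1 library moved some by over 1.5 times, as given with each gene above. The family's median log2 fold change ranged between -0.17 and -0.092 when 1 library was left out, and was -0.22 over members with at least 50% unique stretches, an alternative chosen after seeing the data. The summed ratio ranged between 0.908 and 0.961 when 1 library was left out. The 77 genes called in all became 277 with no filter, 42 with limma-voom, 125 with a term for the libraries with high Xist, and 13 to 249 when 1 library was left out. The 1 gene called in the lists of ribosome, translation and mitochondrial genes became 0 with library size alone and with limma-voom, 6 with no filter, and 0 to 7 when 1 library was left out. Ezh1 ranged between -0.58 and -0.47 when 1 library was left out, and was not called without cKO replicate 1 (edgeR adjusted p = 0.0833) or WT replicate 3 (edgeR adjusted p = 0.115). The causes were not tested.

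The labels do not say whether replicate numbers pair the samples, and they were not treated as pairs. Deviations of same-numbered libraries correlated at 0.157, 0.007 and -0.038, and those of differently numbered libraries at -0.105 to 0.108. So few libraries cannot settle whether they are paired. With a replicate block 0 members and 90 genes in all were called, and the median was -0.16. Low counts limit single members: at a median SE of 0.294 on the log2 scale, modest differences are not detectable.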
